A study of Mus musculus with 18 samples.

Results

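Nuclear mRNA export factors carry transcripts from the nucleus to the cytoplasm. The 10 genes described here (*Xpo1*, *Ran*, *Nxf1*, *Nxf2*, *Nxf3*, *Nxt1*, *Nxt2*, *Alyref*, *Thoc5* and *Ddx19b*) were taken by name from the 54232 genes of the count table. The rule uses no measured value, but the genes were chosen with earlier results of these data known. RNA was measured in round spermatids (RS), the post-meiotic haploid germ cells that have not yet elongated, of mice aged 75 to 85 days, in 6 libraries each of WT, KO and KI. The KO animals have no GRTH, a testis DEAD-box RNA helicase encoded by *Ddx25* that shuttles messages out of the nucleus. KI mice carry a human GRTH gene with a missense mutation and, as the study describes them, have the non-phosphorylated protein but not the phosphorylated form found in the cytoplasm. GRTH is made in Leydig cells as well as germ cells, no source used here limits the change to germ cells, and strain and the number of animals behind a library are not given in the sources used here. RS were settled through a BSA gradient after digestion of the tubules, and total RNA was made into libraries without polyA selection.

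In bulk mRNA export, the TREX complex (THO subunits such as *Thoc5*, with the adaptor *Alyref*) is loaded onto a message as it is spliced and capped, and hands it to a receptor. That receptor is a dimer of an NXF protein, chiefly NXF1, with an NXT cofactor, and it passes the nuclear pore without using RanGTP. At the cytoplasmic face the DEAD-box helicase DDX19, the nearest relative of GRTH, strips proteins from the message with GLE1 and inositol hexakisphosphate. A separate route uses XPO1 (CRM1), an exportin for proteins and for a subset of RNAs. XPO1 binds its cargo only with RanGTP, which the exchange factor RCC1 makes in the nucleus and the activating protein RANGAP1 removes in the cytoplasm.

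The data show a small rise of 3 factors and no change past the threshold for the other 7. By edgeR's quasi-likelihood test of any change, at an adjusted p under 0.1, 3 of the 10 genes (30%) rose and 0 fell in each genotype. Of all 21058 genes tested in this fit of 18 libraries, 16.4% were higher and 13.5% lower in KO, and 16.1% were higher and 15.4% lower in KI. With near-alike libraries summed and the doubtful library KI 4 left out, as described with the libraries, 2 rose in KO (*Alyref* and *Nxf2*) and 1 in KI (*Alyref*). That second fit tested 23982 genes, of which 1905 were higher and 1827 lower in KO, and 1275 were higher and 1647 lower in KI. *Nxf2*, the X-linked germ-cell relative of *Nxf1*, was 1.66-fold its WT level in KO and 1.54-fold in KI. *Alyref* was at 1.62-fold and 1.55-fold, and *Xpo1* at 1.3-fold and 1.31-fold. *Nxf1*, *Nxt1*, *Nxt2*, *Nxf3*, *Thoc5*, *Ddx19b* and *Ran* were not called in either genotype. The largest differences among the listed export genes were outside the 10 genes, in the enzymes that charge and discharge Ran: *Rangap1* was at 0.336-fold in KO and 0.308-fold in KI, and *Rcc1* at 0.377-fold and 0.393-fold.

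Library totals ran from 18766971 to 26776555 gene counts, and levels are given as normalized CPM (each gene's count relative to the library total after TMM scaling). The floor was set at 3 counts, which covers counting error only. All 10 genes passed the filter on low counts, with between 19 and 62 counts per library for *Nxf3*, 46 to 131 for *Nxt2* and at least 316 for each of the rest. The targeted gene *Ddx25* lay between 538 and 607 CPM in WT, between 47.7 and 90.9 in KO and between 0.0456 and 0.519 in 5 KI libraries. Reads were mapped to the mouse genome, so these values may not count the message of the human GRTH gene that KI mice carry. The library labelled KI 4 had 56.9 CPM, within the KO range. It differed from KO 2 by 1.59 times the sampling variance, less than any other pair of the 153, and from each KI library by at least 8.64 times. Within genotypes, 6 pairs of libraries (12 of the 18) differed by 2.12 to 3 times the variance that sampling alone gives, where the next pair stood at 4.62: WT 1 and 2, WT 3 and 4, WT 5 and 6, KO 4 and 5, KI 1 and 2, and KI 3 and 5. No source used here says whether libraries share an animal, so the p-values measure only the spread between these libraries, which may be technical. Called members are therefore also given with these pairs summed and KI 4 left out, which leaves 11 samples (3 WT, 5 KO and 3 KI). Calls lost that way are also stated for the other genes described by name. Counts of calls in the lists of export genes come from all 18 libraries, and are not given with the pairs summed.

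Markers of RS were present throughout, with a summed level over 7 genes of 1194 to 1609 CPM in WT, 902 to 1587 in KO and 882 to 1328 in KI, and 1 of the 7 was lower in KO, 3 were lower in KI and 0 were higher by edgeR. Markers of elongating spermatids, among them the protamines, were lower for 7 of 7 genes in both comparisons, with sums of 12669 to 17739 CPM in WT against 1485 to 3567 in KO and 1910 to 3026 in KI. The study states that *Prm2* and *Tnp2*, which are among these genes, are already transcribed in RS and translated later. Their sum is therefore not a measure of elongating cells alone. Leydig cell markers were higher for 6 of 6 genes, with sums of 9.76 to 19.7 CPM in WT, 29.9 to 52 in KO and 13.4 to 66.1 in KI. Spermatogonial sums were 22.2 to 29.9, 27.9 to 56.8 and 16.1 to 59.3 CPM, with 2 of 6 tested genes higher in KO and 1 in KI. Endothelial sums were 11.2 to 18 CPM in WT, 16.8 to 30 in KO and 20.2 to 28.2 in KI, with 2 of 5 genes higher in both. Spermatocyte sums were 1375 to 1509, 1211 to 1327 and 1165 to 1259 CPM. Of the 7 spermatocyte genes, 2 were higher and 2 lower in KO, and 1 was higher and 2 lower in KI. Sertoli cell sums were 11 to 20.3, 8.44 to 17.2 and 9.44 to 17.5 CPM, with 1 of 7 genes lower in each comparison. Macrophage sums were 9.4 to 13.2, 8.5 to 16.9 and 12.2 to 20.1 CPM. Of the 6 macrophage genes, 1 was higher and 1 lower in KO, and 2 were higher and 1 lower in KI. No marker of these lists was at the floor in every library. The part of these differences in the results below was not tested, and in bulk RNA fewer cells of a type cannot be told apart from less RNA per cell.

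The plot of levels by library shows the 10 genes in the order of their roles, from the adaptors to the Ran route.

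**Figure D1:**
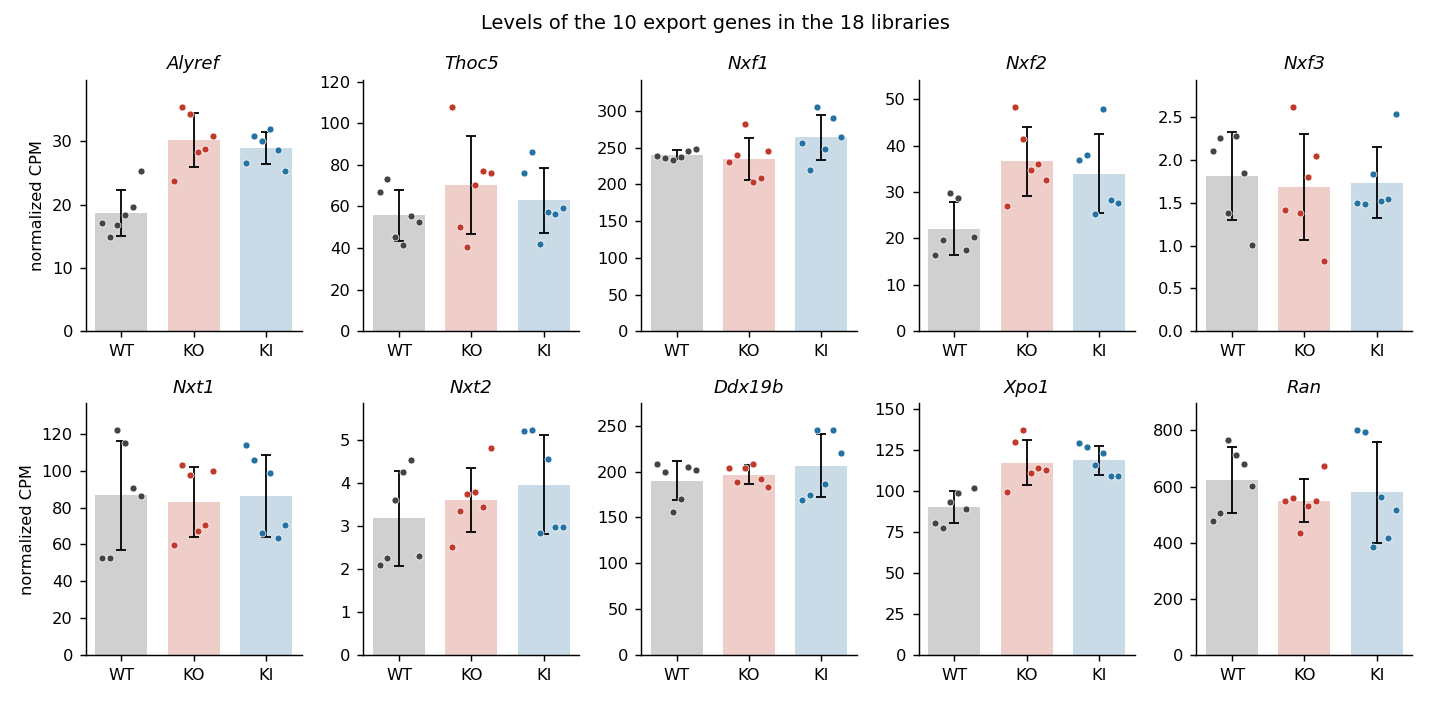
Normalized CPM (vertical axis, from 0, one scale per gene) of the 10 export genes in WT, KO and KI RS. Points are libraries in replicate order, bars are means of 6 libraries and error bars are 1 SD. *Alyref*, *Nxf2* and *Xpo1* sit higher in KO and KI than in WT, while *Nxt1*, *Ran* and *Thoc5* spread widely within each genotype.

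*Alyref* (chr11:120592121-120598365 on GRCm38, minus strand) encodes the TREX adaptor that binds the message and recruits NXF1. Its lowest, median and highest levels were 14.9, 17.8 and 25.4 CPM in WT, against 23.7, 29.8 and 35.5 in KO and 25.4, 29.3 and 32 in KI. The highest WT library, WT 6, reached the lower end of both other genotypes, and all 6 KO and all 6 KI libraries stood above the WT mean. The log2 fold change was 0.69 ± 0.13 (SE, n = 6 against 6) in KO, with an adjusted p of 3.55e-04 from edgeR's quasi-likelihood test, and 0.63 ± 0.13 in KI with an adjusted p of 8.36e-04. A rise in both genotypes thus went with little overlap between libraries. With the close pairs summed and KI 4 left out, *Alyref* had adjusted p-values of 0.0179 in KO and 0.0676 in KI by edgeR, and it was called under all 27 alternatives tried. Its single-exon copy *Alyref2* (92.3% identical over the aligned coding bases) was read at only 8 to 32 counts per library, and the sum of both genes was called too. *Alyref2* itself was higher in KO (log2 fold change 0.73 ± 0.24, edgeR adjusted p = 0.0325, 0.148 with the pairs summed) and was not called in KI (0.36 ± 0.25, edgeR adjusted p = 0.321), and KI did not differ from KO past the threshold (edgeR adjusted p = 0.961).

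*Thoc5* (chr11:4895320-4928867, plus strand), a subunit of the THO core of TREX, lay at 41.6, 53.8 and 73.2 CPM in WT, against 40.5, 73.3 and 108 in KO and 42, 58.3 and 86.4 in KI (lowest, median and highest). The genotypes overlapped over most of their ranges, and the log2 fold changes of 0.33 ± 0.21 in KO and 0.17 ± 0.21 in KI were not called by edgeR (adjusted p = 0.272 and 0.603). Their 95% intervals ran from -0.09 to 0.76 and from -0.26 to 0.60, so a rise as large as that of *Alyref* lies within the first of them.

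*Nxf1* (chr19:8757073-8772475, plus strand) encodes the general export receptor. It was the steadiest of the 10 genes among WT libraries, with 233, 239 and 249 CPM and a coefficient of variation of 2.59%. KO libraries lay on both sides of that range at 204, 235 and 282 CPM, and KI libraries at 220, 260 and 306 CPM. The log2 fold changes were -0.03 ± 0.11 in KO and 0.14 ± 0.11 in KI, with 95% intervals of -0.26 to 0.20 and -0.09 to 0.37 (edgeR adjusted p = 0.884 and 0.401). Changes of more than 0.37 log2 units in either direction are thus outside both intervals.

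*Nxf2* (chrX:134944526-134964754, minus strand) encodes a receptor of the same family that is expressed mainly in germ cells. Its levels were 16.5, 20 and 29.7 CPM in WT, against 26.9, 35.3 and 48.4 in KO and 25.2, 32.6 and 47.9 in KI. 5 of 6 KO libraries and 3 of 6 KI libraries exceeded the highest WT library, and the 2 WT libraries of 1 close pair, WT 3 and 4 at 29.7 and 28.8 CPM, made up the overlap. The log2 fold change was 0.73 ± 0.18 in KO (edgeR adjusted p = 0.00471) and 0.62 ± 0.18 in KI (edgeR adjusted p = 0.0135). With the pairs summed and KI 4 left out, the KO value was 0.74 ± 0.22 with an edgeR adjusted p of 0.0458, and the KI value was 0.51 ± 0.25 with an edgeR adjusted p of 0.248, so the call in KI was lost. KI 4 was the highest KI library for this gene at 47.9 CPM, and leaving it out alone gave 0.50 ± 0.18 in KI (edgeR adjusted p = 0.0433). Per base of exon, *Nxf2* stood at 21.5% ± 5.95 of the *Nxf1* level in WT, against 36.5% ± 7.13 in KO and 30.8% ± 10.3 in KI (SD, n = 6 each), with the ranges overlapping.

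The other NXF genes were scarce. *Nxf3* (chrX:136072099-136085255, minus strand), a receptor relative whose human counterpart is known to leave the nucleus through XPO1, had 1.81 ± 0.514 CPM in WT, against 1.68 ± 0.62 in KO and 1.73 ± 0.411 in KI (SD, n = 6 each). At this depth its intervals were wide, from -0.63 to 0.42 log2 units in KO and from -0.59 to 0.46 in KI. *Nxf7*, an X-linked paralog that is not one of the 10 genes, had 2 to 13 counts per library and did not pass the filter.

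*Nxt1* (chr2:148672601-148676027, plus strand) and *Nxt2* (chrX:142226770-142239692, plus strand) encode the small cofactors that pair with NXF proteins. *Nxt1* had 52.8, 88.6 and 122 CPM in WT, against 59.6, 84.2 and 103 in KO and 63.5, 84.8 and 114 in KI, so its genotype means of 86.8, 83.2 and 86.5 CPM were nearly level. Its spread followed the close pairs: WT 1 and 2 stood at 52.8 and 52.9 CPM, WT 3 and 4 at 122 and 115, and WT 5 and 6 at 90.9 and 86.3. The largest gap between members of a pair was 0.10 log2 units, against an SD of 0.53 log2 units over the 6 WT libraries. *Nxt2* was much scarcer, at 3.18 ± 1.1 CPM in WT, against 3.61 ± 0.746 in KO and 3.97 ± 1.16 in KI (SD, n = 6 each), and its log2 fold changes of 0.19 ± 0.23 and 0.32 ± 0.23 were not called by edgeR (adjusted p = 0.621 and 0.336). Per base of exon, *Nxt2* stood at 1.32% ± 0.302 of *Nxt1* in WT, against 1.56% ± 0.293 in KO and 1.6% ± 0.093 in KI (SD, n = 6 each). The ranges overlapped, at 0.937% to 1.76% in WT, 1.15% to 1.97% in KO and 1.48% to 1.73% in KI.

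*Ddx19b* (chr8:111003188-111031751, minus strand), the helicase that releases the message at the pore, had 156, 201 and 208 CPM in WT, against 183, 198 and 208 in KO and 169, 203 and 245 in KI. The KO libraries were the tightest, with a coefficient of variation of 5.14%, and lay inside the WT range but for the highest, which was level with it. The log2 fold change was 0.05 ± 0.12 in KO and 0.12 ± 0.12 in KI (95% intervals -0.20 to 0.30 and -0.13 to 0.37, edgeR adjusted p = 0.83 and 0.519). *Ddx19b* was thus not called in KO RS, which have no GRTH, nor in KI RS, which keep its non-phosphorylated form. The stretch of coding sequence around the DEAD motif, the ATP-binding signature that names the family, is printed for GRTH and both DDX19 genes to show how near these helicases are. The capitals mark the codons of the motif, and the sequences were read from GRCm38 on the minus strand.
Ddx25 (chr9:35551299-35551382): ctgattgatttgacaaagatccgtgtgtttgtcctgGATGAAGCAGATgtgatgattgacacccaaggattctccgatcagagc
Ddx19b (chr8:111011299-111011382): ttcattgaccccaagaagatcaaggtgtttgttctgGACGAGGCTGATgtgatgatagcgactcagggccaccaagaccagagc
Ddx19a (chr8:110979050-110979133): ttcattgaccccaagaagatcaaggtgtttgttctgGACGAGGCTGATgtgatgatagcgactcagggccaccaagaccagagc
Over these 84 bases *Ddx25* differed from *Ddx19b* at 27 positions, and *Ddx19a* and *Ddx19b* did not differ. Over the aligned coding bases, identity was 70.1% between *Ddx19b* and *Ddx25* and 93.2% between *Ddx19b* and *Ddx19a*. Of the 50-base words of *Ddx19b*, 12.4% were shared with *Ddx19a*, as were 28.1% of those of *Ddx19a* with *Ddx19b*, so their split is uncertain. The sum of both genes was not called either (edgeR, 0.05 log2 units in KO and 0.13 in KI). *Ddx19a* itself stood at 4.22 ± 0.63 CPM in WT, against 5.11 ± 0.859 in KO and 5.37 ± 0.696 in KI (SD, n = 6 each). Its log2 fold change was 0.34 ± 0.15 in KI (edgeR adjusted p = 0.0919) and 0.28 ± 0.15 in KO (edgeR adjusted p = 0.193), and KI against KO was not called (edgeR adjusted p = 0.971). The KI call held under 13 of 26 alternatives, and not with the pairs summed and KI 4 left out (0.388) or without KI 4 alone (0.137). None of the words of *Ddx25*, *Xpo1*, *Nxf1*, *Nxf2*, *Nxf3* or *Thoc5* was shared with another gene.

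*Xpo1* (chr11:23256041-23298249, plus strand) had 77.7, 91.3 and 102 CPM in WT, against 99.2, 113 and 137 in KO and 109, 120 and 129 in KI. All 6 KI libraries and 5 of 6 KO libraries exceeded the highest WT library. The log2 fold change was 0.38 ± 0.11 in KO (edgeR adjusted p = 0.013) and 0.39 ± 0.11 in KI (edgeR adjusted p = 0.00892). Summing the close pairs and leaving out KI 4 kept the size of both differences, 0.39 ± 0.17 and 0.41 ± 0.19, but neither was then called by edgeR (adjusted p = 0.178 and 0.236). Without KI 4 alone, the KI value was 0.38 ± 0.11 (edgeR adjusted p = 0.018).

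*Ran* (chr5:129020069-129024323, plus strand), the GTPase that drives XPO1, was the most abundant of the 10 genes in WT. Its levels were 476, 641 and 767 CPM in WT, against 435, 547 and 674 in KO and 386, 539 and 800 in KI, and the KI libraries spanned a 2.07-fold range that enclosed those of WT and KO. The log2 fold changes of -0.18 ± 0.18 in KO and -0.11 ± 0.18 in KI were not called by edgeR (adjusted p = 0.528 and 0.727), with 95% intervals of -0.56 to 0.19 and -0.48 to 0.27. Among its relatives, *Rasl2-9*, an intronless copy of *Ran* expressed in testis and 94.6% identical in its coding bases, was not called either (-0.11 ± 0.19 and -0.04 ± 0.19, edgeR adjusted p = 0.749 and 0.92). It stood at 53% ± 4.41 of *Ran* per base of exon in WT, against 56.4% ± 6.82 in KO and 56.3% ± 2.9 in KI (SD, n = 6 each). Of the 50-base words of *Ran*, 14.1% were shared with other genes, most of them with *Gm13461*, so the split between these 2 genes is uncertain. Of the words of *Rasl2-9*, 3.01% were shared, with *Gm13461* and *Ran*.

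By edgeR glmTreat, which asks for a change larger than 1 log2 unit, 0 of the 10 genes were called in KO or KI, where 1.73% and 1.95% of all tested genes were. At an unadjusted p under 0.05 that test gave 0 of the 10 as well, beside 730 of all 21058 genes in KO and 828 in KI, and DESeq2 gave 0. Similarly, 0 of the 10 were lower by any amount in either genotype by edgeR, by DESeq2 or at an unadjusted p under 0.05. Of all tested genes, 13.5% in KO and 15.4% in KI were lower by edgeR. At an unadjusted p under 0.05, 7199 and 7504 genes differed in either direction by edgeR. The median log2 fold change of the 10 genes was 0.12 in KO and 0.16 in KI, beside 0.03 and 0.05 over all tested genes.

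**Figure D2:**
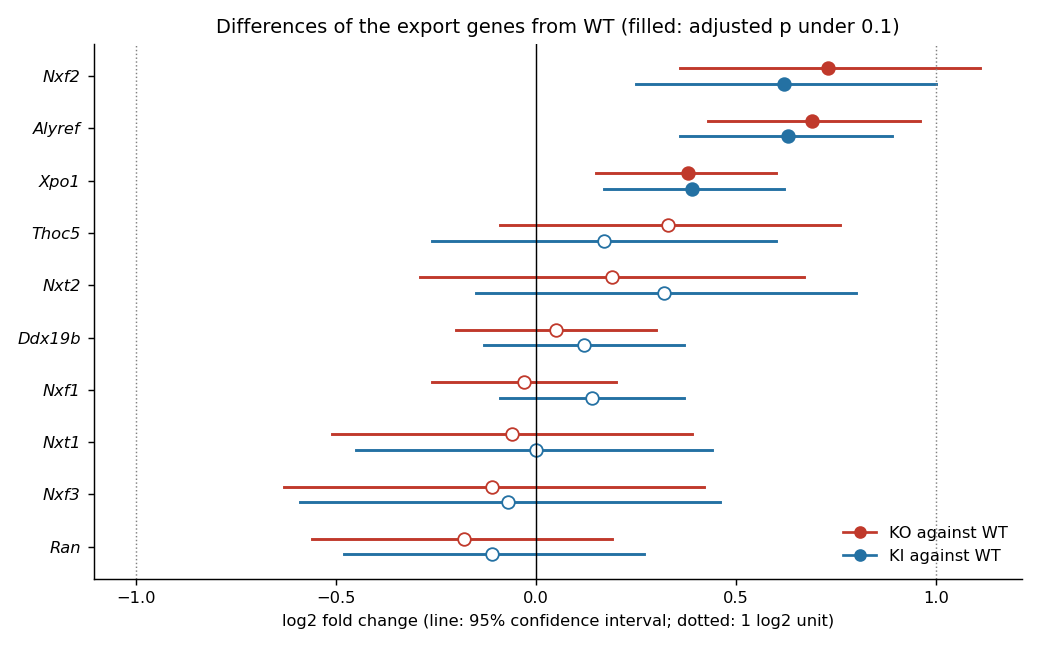
Log2 fold change against WT (horizontal axis) of the 10 export genes in KO and KI, with 95% confidence intervals from edgeR, 6 libraries per genotype. Filled points had an adjusted p under 0.1 and dotted lines mark 1 log2 unit. *Nxf2*, *Alyref* and *Xpo1* are the filled points, and the KO and KI intervals of every gene overlap.

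KI against KO asks whether losing only the phosphorylated form of GRTH leaves these genes at other levels than losing the whole protein. By edgeR, 0 of the 10 genes were called, 0 had an unadjusted p under 0.05, and the lowest adjusted p was 0.961. DESeq2 called 0, with 1 at an unadjusted p under 0.05. Over all genes, 931 of 21058 had an unadjusted p under 0.05 by edgeR, and 1371 genes did by DESeq2. Over all tested genes 0.0997% were called in this comparison. The KI arm includes KI 4, whose *Ddx25* level was that of KO. Without it, 0 of the 10 genes were called by edgeR, and the calls over all genes went from 21 to 111. The differences over all 6 KI libraries ran from -0.16 log2 units for *Thoc5* to 0.17 for *Nxf1*, with 95% intervals of -0.59 to 0.27 and -0.06 to 0.40. For the 3 genes that rose, the KI minus KO intervals were -0.33 to 0.20 for *Alyref*, -0.48 to 0.26 for *Nxf2* and -0.21 to 0.24 for *Xpo1*, which leaves room for moderate differences in either direction. Without KI 4 the lowest difference was that of *Nxf2*, at -0.23 ± 0.18 (edgeR adjusted p = 0.698), and the highest that of *Nxf1*, at 0.19 ± 0.12 (edgeR adjusted p = 0.644). KO and KI were both compared with the same 6 WT libraries, so their rises are not independent of each other.

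Per kilobase of exon, the WT levels placed the 10 genes in an order. *Ran* came first at 236 ± 44.2 CPM per kb, then *Nxt1* at 77.8 ± 26.6, *Nxf1* at 40.2 ± 1.04, *Ddx19b* at 28.2 ± 3.22, and *Thoc5* at 19.5 ± 4.3 (SD, n = 6). *Xpo1* followed at 12.6 ± 1.35, *Nxf2* at 8.59 ± 2.24, *Alyref* at 4.87 ± 0.947, *Nxt2* at 1 ± 0.346 and *Nxf3* at 0.594 ± 0.169. The WT libraries of *Ddx19b* and *Thoc5*, of *Xpo1* and *Nxf2*, of *Nxf2* and *Alyref*, and of *Nxt2* and *Nxf3* overlapped, and the other neighbours in this order did not. The 3 genes that rose held the sixth to the eighth place.

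The promoters of the 3 genes that rose are printed to show what precedes their start sites. Each is the 150 bases upstream of the start in RefSeq (GRCm38.p6), 5′ to 3′ on the strand of the gene, with capitals for matches on either strand to 5 motifs. These were the core of a CRE site, TGACG, and the GC box, GGGCGG. The CCAAT box was searched by the letters of its name. A TATA box was taken as TATAAA. The last was the E-box CACGTG, which was added after the *Nxf2* sequence had been seen.
Alyref (chr11:120598366-120598515, minus): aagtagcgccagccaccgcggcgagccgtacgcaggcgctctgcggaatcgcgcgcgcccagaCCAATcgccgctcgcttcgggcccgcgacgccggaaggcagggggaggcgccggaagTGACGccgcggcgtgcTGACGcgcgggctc
Xpo1 (chr11:23255891-23256040, plus): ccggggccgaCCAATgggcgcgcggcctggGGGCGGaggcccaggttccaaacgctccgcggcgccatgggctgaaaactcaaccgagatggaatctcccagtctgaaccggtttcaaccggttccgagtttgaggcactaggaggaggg
Nxf2 (chrX:134964755-134964904, minus): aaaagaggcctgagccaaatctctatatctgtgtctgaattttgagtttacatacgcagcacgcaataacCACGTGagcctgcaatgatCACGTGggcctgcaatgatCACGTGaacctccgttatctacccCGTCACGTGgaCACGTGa
The *Alyref* window held 2 CRE cores and 1 CCAAT box, and the *Xpo1* window 1 GC box and 1 CCAAT box. The *Nxf2* window held 5 copies of CACGTG and 1 CRE core that overlaps the E-box beside it, with no GC or CCAAT box. Of the 32851 promoter windows of the same length, 13.3% held TGACG, 28.6% GGGCGG, 24.5% CCAAT, 7.57% TATAAA and 4.3% CACGTG. No motif was common to all 3 windows. A match describes these letters only. Windows were found for 9 of the 10 genes, and *Ran* had 1 CACGTG and 2 GC boxes although it did not change past the threshold. Of the other genes that were not called, *Nxt1* had 1 GC box and 1 CCAAT box, as *Xpo1* did. *Nxf1* had 3 GC boxes, *Ddx19b* 2 CCAAT boxes, *Nxt2* 1 CCAAT box and *Thoc5* none of the motifs. The RefSeq start used for *Nxt2* lies 1167 bases from the start of the gene in GENCODE, against at most 87 for the other windows.

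The Ran cycle, on which *Xpo1* depends, held the largest changes among the listed export genes. *Rangap1* had 382, 459 and 503 CPM in WT, against 98.3, 162 and 183 in KO and 126, 139 and 159 in KI (lowest, median and highest), with no overlap between WT and the others. Its log2 fold change was -1.57 ± 0.14 in KO and -1.70 ± 0.14 in KI (edgeR adjusted p = 2.17e-08 and 5.85e-09). It was the only one of the 78 other export genes tested past 1 log2 unit (glmTreat adjusted p = 0.0145 and 0.00178), where 1.13% of all genes in KO and 1.43% in KI were lower by that test. With the pairs summed and KI 4 left out, that second call was lost (glmTreat adjusted p = 0.191 and 0.386), while the test for any amount gave 4.18e-05 and 2.31e-04. *Rcc1* had 131, 155 and 171 CPM in WT, against 49.1, 59.4 and 62.8 in KO and 44.6, 63 and 77.3 in KI, again without overlap, and a log2 fold change of -1.41 ± 0.13 in KO and -1.35 ± 0.13 in KI (edgeR adjusted p = 6.27e-08 and 9.75e-08). Of the words of *Rcc1*, 1.54% were shared with the noncoding gene *Snhg3*.

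Relative to *Ran* in the same library and per base of exon, *Rangap1* stood at 40.8% ± 8.56 in WT, against 15.2% ± 3.16 in KO and 14.2% ± 4.1 in KI (SD, n = 6 each). *Rcc1* stood at 17.5% ± 3.53, 7.45% ± 1.4 and 8.21% ± 3.95. These ratios did not overlap between WT and the other genotypes for either gene. *Ranbp3*, a cofactor of XPO1 that aids cargo loading, rose as *Xpo1* did, from 64.6 ± 5.5 CPM in WT to 94.5 ± 12.3 in KO and 101 ± 20.4 in KI (log2 fold change 0.55 ± 0.13 and 0.64 ± 0.13, edgeR adjusted p = 0.00296 and 7.09e-04). *Ranbp2*, the large pore filament protein that anchors RANGAP1, was called higher at 0.34 ± 0.14 and 0.35 ± 0.14 (edgeR adjusted p = 0.0925 and 0.0735), a call kept in 13 of 26 alternatives for KO and 18 of 26 for KI, and not with the pairs summed (0.289 and 0.439) or, in KI, without KI 4 alone (0.151).

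**Figure D3:**
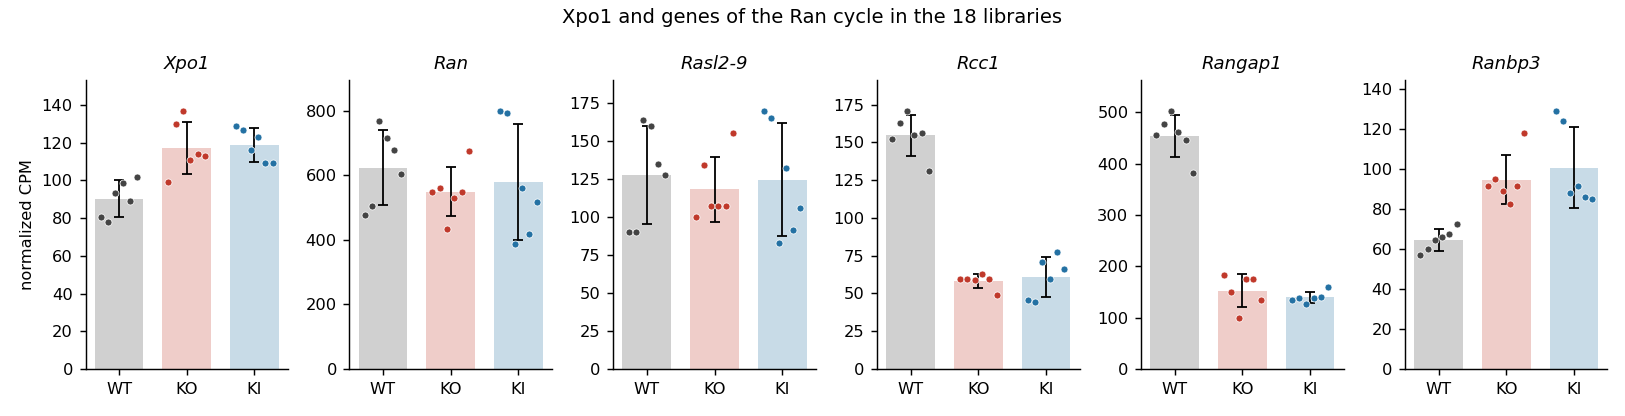
Normalized CPM (vertical axis, from 0, one scale per gene) of *Xpo1* and genes of the Ran cycle in WT, KO and KI RS. Points are libraries in replicate order, bars are means of 6 libraries and error bars are 1 SD. *Rcc1* and *Rangap1* lie below every WT library in KO and KI, *Xpo1* and *Ranbp3* lie higher, and *Ran* and *Rasl2-9* overlap across genotypes.

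Over the rest of the pathway, 14 of the 78 other export genes tested rose (17.9%) and 9 fell (11.5%) in KO, and 17 rose (21.8%) and 10 fell (12.8%) in KI. Beside them stand the shares of all genes given above, which are for each comparison alone. In both genotypes 10 rose and 9 fell, and no share of all genes is given for calls in both. Both genotypes were compared with the same 6 WT libraries, so such shared calls are not independent. Among 16 TREX genes, members included, 6 rose and 1 fell in each comparison, with a median log2 fold change of 0.27 in KO and 0.29 in KI. *Thoc2*, the scaffold of the THO core, rose by 0.53 ± 0.13 and 0.59 ± 0.13 log2 units (edgeR adjusted p = 0.005 and 0.00189). *Chtop*, a further adaptor for NXF1, rose by 0.34 ± 0.13 and 0.35 ± 0.13 (edgeR adjusted p = 0.0629 and 0.0541), although the call held in 20 and 21 of 26 alternatives and not with the pairs summed (0.235 and 0.367) or, in KI, without KI 4 alone (0.113). *Thoc1*, another THO subunit, fell by 0.45 and 0.50 log2 units (SE 0.13 each, edgeR adjusted p = 0.0131 and 0.00566), and neither call remained with the pairs summed (0.171 and 0.159). TREX genes thus moved in both directions.

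In TREX-2, which couples transcription to the pore, 1 of 8 genes rose and 1 fell in KO, and 2 rose and 1 fell in KI. *Cetn2*, a centrin that also belongs to centrioles, fell from 6.71 ± 1.38 CPM in WT to 3.21 ± 0.644 in KO and 3 ± 0.879 in KI (log2 fold change -1.06 ± 0.19 and -1.16 ± 0.19, edgeR adjusted p = 3.03e-04 and 1.02e-04). *Pcid2* rose by 0.34 ± 0.12 and 0.49 ± 0.12 (edgeR adjusted p = 0.0338 and 0.00308), with p-values of 0.2 and 0.0896 when the pairs were summed, so that the KO call was lost. Of 10 genes for cap binding and other adaptors, 0 rose and 1 fell in KO by edgeR, and 2 rose and 1 fell in KI. The gene that fell in both was *Ncbp2*, the cap-binding subunit that meets the 5′ end of a new message, at -0.68 ± 0.11 and -0.69 ± 0.11 (edgeR adjusted p = 1.14e-04 and 8.49e-05), with no overlap between WT and the other genotypes.

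At the pore itself, 2 of 10 genes of the cytoplasmic face rose and 1 fell in KO, and 1 rose and 1 fell in KI. The fall was that of *Nup98*, whose protein gathers export complexes, at -0.46 ± 0.14 in both (edgeR adjusted p = 0.0225 and 0.0223, and 0.153 and 0.31 with the pairs summed). Of 24 genes of the scaffold, ring and basket, 3 rose and 3 fell in KO, and 4 rose and 4 fell in KI. *Nup107*, of the outer ring, rose from 22.6 ± 4.86 CPM in WT to 44 ± 6.53 in KO and 42.9 ± 7.14 in KI (log2 fold change 0.96 ± 0.15 and 0.92 ± 0.15, edgeR adjusted p = 6.21e-05 and 8.23e-05). Its partner in the outer ring *Nup37* fell by 0.63 and 0.62 (SE 0.18 each, edgeR adjusted p = 0.0156 and 0.0153), and *Nup35*, of the inner ring, fell by 1.05 and 0.98 (SE 0.13 each, edgeR adjusted p = 3.49e-06 and 7.02e-06). *Nup210*, a membrane nucleoporin, rose by 0.53 ± 0.17 and 0.57 ± 0.17 (edgeR adjusted p = 0.0229 and 0.0141). With the pairs summed, *Nup107* and *Nup35* kept their calls and *Nup37* and *Nup210* did not.

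**Figure D4:**
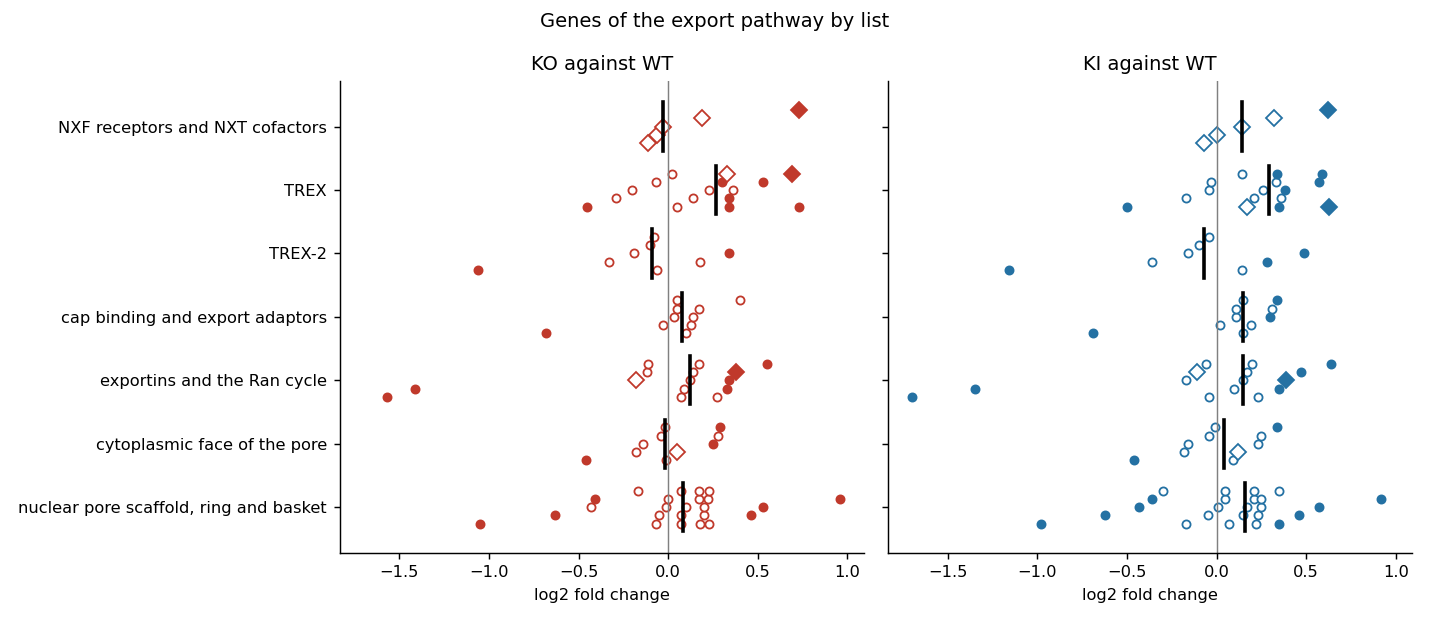
Log2 fold change against WT (horizontal axis) of each tested gene in 7 lists of export genes, for KO and KI. Diamonds are the members described here, filled symbols had an edgeR adjusted p under 0.1 and black bars are list medians. Most medians lie near 0, and the farthest points to the left are *Rangap1* and *Rcc1* in the Ran cycle.

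Within genotypes the 10 genes did not vary alone. Deviations of log2 CPM from the mean of each genotype were compared over the 18 libraries, which include the close pairs, so fewer than 18 points are independent and no test is given. *Ran* moved with *Rasl2-9* (Pearson r = 0.93) and *Nxt1* (0.74) and against *Ddx19b* (-0.88). *Nxt1* moved with *Nxt2* (0.81), *Xpo1* (0.82) and *Nxf2* (0.78). For *Nxf1* the values ran from -0.63 with *Thoc5* to 0.51 with *Ddx19b*. *Thoc5* ran against the share of counts on mitochondrial genes (r = -0.88), a share that lay between 9.93% and 13.5% in WT, 7.89% and 23.6% in KO, and 8.58% and 19.4% in KI. *Alyref* (0.59), *Nxf1* (0.65) and *Xpo1* (0.48) ran with that share, and *Ran* (-0.48) ran against it. Outside the 10 genes, the value was -0.63 for *Rangap1* and 0.42 for *Rcc1*. The part of the mitochondrial share in the differences between genotypes was not tested.

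**Figure D5:**
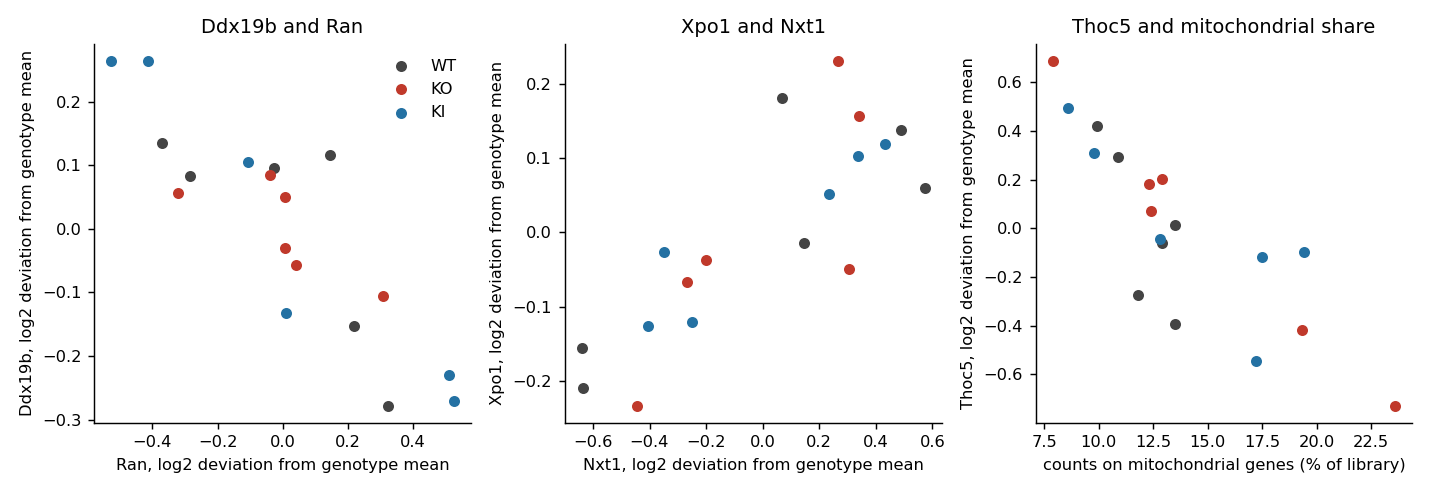
Deviation of log2 CPM from the mean of the genotype in each of the 18 libraries, for *Ddx19b* against *Ran* (left) and *Xpo1* against *Nxt1* (middle), and for *Thoc5* against the percentage of counts on mitochondrial genes (right). Points are libraries, coloured by genotype. *Ddx19b* falls as *Ran* rises (r = -0.88), *Xpo1* rises with *Nxt1* (0.82) and *Thoc5* falls with the mitochondrial share (-0.88).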

How the data were processed

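Total RNA of RS was sequenced in 18 libraries, 6 per genotype. The authors removed adapters (cutadapt 3.4), mapped to GRCm38 (STAR 2.7.8a), counted reads by strand on GENCODE M18 genes with featureCounts (Subread 2.0.1) and deposited raw counts and exon lengths for 54232 genes. Genotypes came from the labels, and symbols from GENCODE M21. In R 4.3.3, edgeR 4.0.16 filtered genes with filterByExpr (21058 left), scaled them with TMM factors and fitted 1 quasi-likelihood model of genotype. glmQLFTest tested changes of any amount and glmTreat changes past 1 log2 unit, with Benjamini-Hochberg adjustment over all tested genes and a threshold of 0.1. SEs, intervals (95%) and p-values come from this fit, which was tested on simulated data. Where a repeat of leaving out libraries or summing pairs is given, the same fit was rerun. The same replicate number did not pair libraries across genotypes (7 of 18 correlations over 0.1). Libraries of a genotype were a close pair where the median squared difference of their counts was under 4 times that of sampling. DESeq2 1.42.0 was an alternative. Named genes were the 10 members, the targeted gene, 4 paralogs and, per list, genes past 1 log2 unit and the 2 largest rises and falls called in both genotypes. The members, lists and tests were chosen with earlier results of these data known. Coding sequences, shared words of 50 bases and promoters were read from GENCODE and RefSeq. Figures were drawn with matplotlib 3.10.9.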

Additional observations from a re-analysis of the deposited data

Results flagged for a closer look

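Of 90 groups of 6 libraries checked over 30 named genes, 5 held a library far from the others by Dixon's ratio at its 95% critical value, about as many as the 1 in 20 that chance gives. *Ddx25* was at 56.9 CPM in KI 4, the doubtful library described above, against 0.519 in the next highest KI library. That gap was 0.99 of the KI range, against 0.65 to 0.76 in the other groups found, so the number of groups says nothing on it. *Nxf3* reached 2.53 CPM in KI 6, against 1.83 in the next, and these values rest on 62 and 40 counts. *Alyref2* reached 1.52 CPM in KO 3, against 1.09. *Rcc1* was lowest in KO 6 at 49.1 CPM, against 58.7, so the fall of *Rcc1* in KO does not rest on it (log2 fold change -1.36 without KO 6). *Ranbp3* was highest in KO 6 at 118 CPM, against 94.9, and its rise in KO was 0.48 log2 units without that library.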

How the results depend on the processing

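The 3 rises and 0 falls among the 10 genes kept their number with DESeq2, with its size factors, with at least 10 counts in every library, with a model of only the genotypes compared, at an adjusted p of 0.05 and without any single library (3 in KO and 3 in KI throughout). With no filter on low counts KO had 2, without *Xpo1*. With the close pairs summed and KI 4 left out, 2 remained in KO and 1 in KI, a fit with fewer samples. With the replicate number as a block, 3 were called in KO and 3 in KI, and the members' calls did not change. No setting, the interval form of glmTreat (chosen after seeing the data) included, put a member past 1 log2 unit, and none called a member in KI against KO.

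Against WT, the sign changed for some uncalled log2 fold changes near 0 of the members and of *Rasl2-9*. In KI against KO, where no member was called, it changed for *Xpo1* (-0.03 to 0.08 over the alternatives), *Ran* (-0.04 to 0.17), *Nxf3* (-0.10 to 0.23) and *Nxt1* (-0.04 to 0.13), and for other named genes. *Nxt1* in KI was 0.00 with DESeq2 and with its size factors, 0.02 with no filter, 0.00 with at least 10 counts in every library, 0.03 with the genotypes alone and 0.03 with the block. With the pairs summed and KI 4 left out, *Nxf1* in KO was 0.00 and *Nxf3* in KI 0.08. Without single libraries the values ran from -0.22 to 0.01 for *Ran* in KI, -0.09 to 0.01 for *Nxf1* in KO, -0.28 to 0.03 and -0.21 to 0.01 for *Nxf3* in KO and KI, -0.17 to 0.06 and -0.11 to 0.17 for *Nxt1* in KO and KI, and -0.01 to 0.08 for *Ddx19b* in KO. For *Rasl2-9* in KI they ran from -0.15 to 0.09. The cause was not tested. Over all genes, calls of any amount fell from 6297 to 3732 in KO and from 6644 to 2922 in KI with the pairs summed and KI 4 left out, a fit with fewer samples, and calls past 1 log2 unit fell from 411 to 227 in KI. Calls past 1 log2 unit in KO fell from 365 to 214 with at least 10 counts in every library. KI against KO gave 21 calls, 85 with DESeq2, 97 with no filter, 5 with at least 10 counts in every library, 11 with the genotypes alone, 44 with the pairs summed, and 8 to 111 without single libraries, the highest without KI 4. Past 1 log2 unit it gave 1 call, 5 with DESeq2, 10 with no filter, 0 with at least 10 counts in every library, 8 with the pairs summed and up to 15 without single libraries, again without KI 4. The interval form of glmTreat gave 516 calls in KO and 594 in KI. Depth limits *Nxf3*, *Nxt2*, *Nxf7* and *Alyref2*, the scarcest genes.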
